A study of Mus musculus with 8 samples.

Results

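The genes described here make, sense, anchor and break down cyclic AMP (cAMP) and cyclic GMP (cGMP) in the mouse left ventricle. They were chosen by symbol: phosphodiesterases (Pde1 to Pde12), adenylyl cyclases (Adcy), soluble guanylate cyclase subunits (Gucy1), the catalytic and regulatory subunits of cAMP-dependent protein kinase (PKA), the cGMP-dependent kinases (PKG) and the A-kinase anchoring proteins with an Akap symbol. This rule, which used no measured value, took 60 of the 55385 genes measured, though it was chosen with earlier results of these data known. RNA-seq covered the left ventricles of male mice on the C57BL6 background, with 4 Mst1-TG and 4 WT libraries. Mst1-TG mice carry an Mst1 transgene under the alpha-myosin heavy chain promoter, which is restricted to cardiomyocytes, and develop dilated cardiomyopathy (DCM) with an activated Hippo pathway, while WT mice are littermates with no transgene. The series' design text gives an age of 3 weeks and the RNA protocol an age of 3 months, while the growth protocol names mice of 3 weeks and of 5.5 months, so the age of these libraries is not settled by the labels. The labels do not state that each library is its own mouse, and the p-values below rest on the spread from library to library, which may be technical in part.

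In cardiomyocytes, beta-adrenergic receptors act through the G protein Gs to switch on adenylyl cyclases, and the cAMP they make frees the catalytic subunits of PKA from its regulatory subunits. PKA then phosphorylates calcium-handling and myofilament proteins, which strengthens contraction and speeds relaxation. Anchoring proteins hold PKA next to its substrates, and phosphodiesterases confine cAMP and cGMP to small domains of the cell. Soluble guanylate cyclase, switched on by nitric oxide, and the natriuretic peptide receptors make cGMP, which acts through PKG.

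The libraries held 21435063 to 22355197 counts in Mst1-TG and 21193536 to 23809256 in WT. Stk4, the gene that encodes Mst1, averaged 1608 ± 130.3 CPM in Mst1-TG and 27.2 ± 1.88 CPM in WT (SD, n = 4 each; CPM, the count scaled by library size and TMM factor). Mitochondrial genes took 13.6% ± 0.676 of counts in Mst1-TG and 22.9% ± 1.11 in WT (SD, n = 4 each; two-sided p = 0.0286 by an exact permutation test, the floor for 4 against 4 libraries). Of the 15314 genes with enough counts to test, edgeR's quasi-likelihood test called 42.3% at an adjusted p under 0.05, with 21.2% higher and 21.1% lower in Mst1-TG. The scaling bears on the directions below. With library totals in place of TMM factors, the median log2 fold change of all genes moved to 0.29 from 0.01.

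Of the 60 genes, 50 could be tested, and 10 were left out by the filter on low counts. Among the tested genes 12 were higher and 18 lower in Mst1-TG, so 30 of the 50 were called, beside 42.3% of all genes. Of the 50, 16 (32.0%) also changed at least 1.5-fold, 6 higher and 10 lower, beside 21.4% of all genes. The libraries of the groups did not overlap for 28 of the 50, or 56.0%, beside 40.3% of all genes. The median log2 fold change of the 50 was 0.00 and the median of its absolute value 0.39, beside 0.01 and 0.28 for all genes. These are descriptions of the list, with no test over it.

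**Figure D1:**
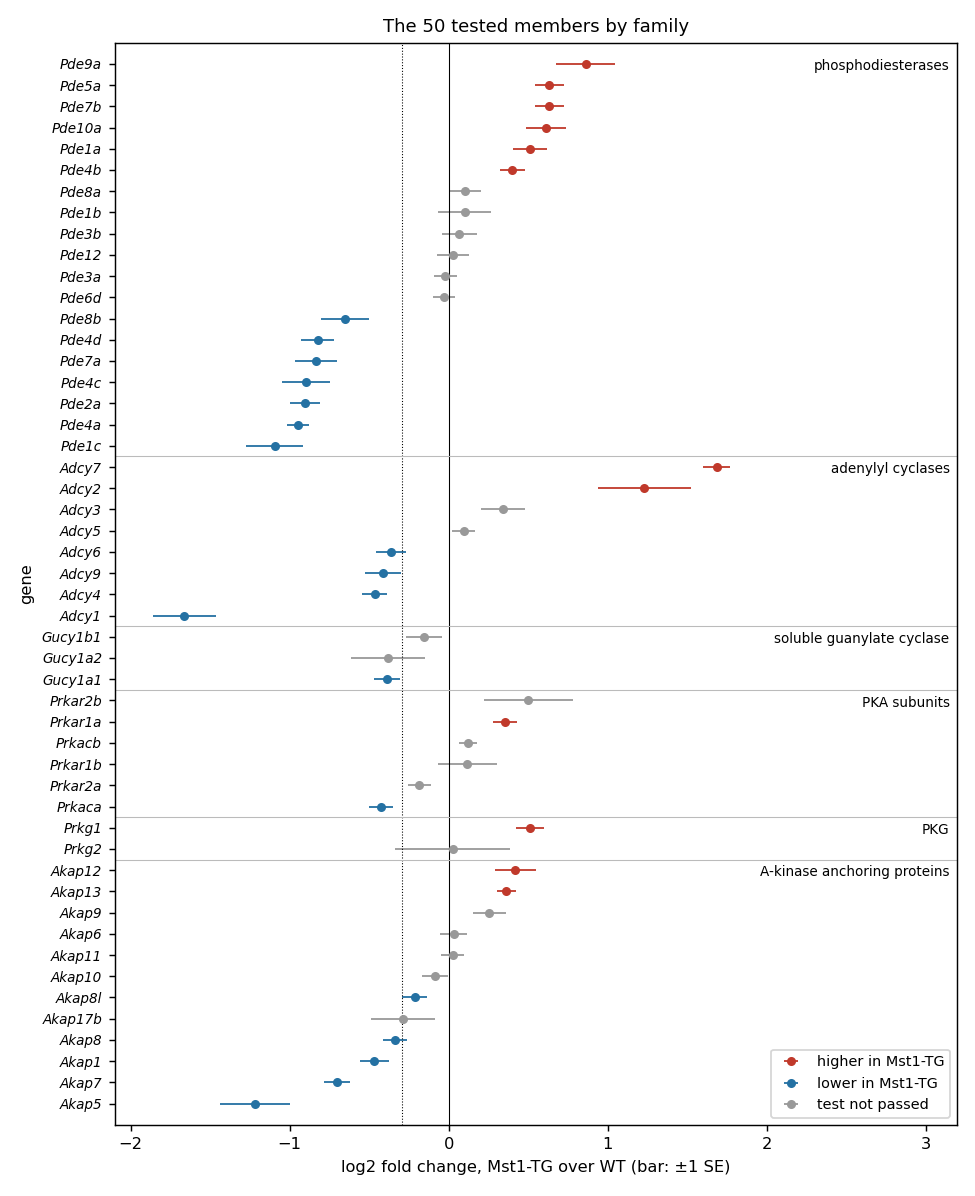
Log2 fold change (Mst1-TG over WT, horizontal axis; bars are ±1 SE) of the 50 tested genes, grouped by family down the page, with red for higher, blue for lower and grey for genes that did not pass edgeR's test. The dotted line marks where 0 would lie if libraries were scaled by their totals, which moves the all-gene median by 0.29; Adcy7 at 1.69 lies farthest right and Adcy1 at -1.66 farthest left.

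Promoters of 4 genes that moved are printed to show windows that held a CRE core or a TEAD core. The CRE core is only a part of the full CRE, the site of CREB-family factors. The TEAD core is the site of the factors to which the Hippo pathway's coactivators bind. Of the 4 windows, only that of Prkar1a holds the full CRE. The sequences are from RefSeq (GRCm38.p6) and run 5′ to 3′ on the gene's strand over the 250 bases before an annotated start. A gene may have several such windows, of which 1 is shown. Capitals mark the CRE core TGACG or its reverse complement CGTCA in Adcy7 and Prkar1a, including the whole palindrome TGACGTCA in Prkar1a, and the TEAD core CATTCC or its reverse complement GGAATG in Pde1a and Pde4a.
Adcy7, chr8:88282742-88282991, plus strand: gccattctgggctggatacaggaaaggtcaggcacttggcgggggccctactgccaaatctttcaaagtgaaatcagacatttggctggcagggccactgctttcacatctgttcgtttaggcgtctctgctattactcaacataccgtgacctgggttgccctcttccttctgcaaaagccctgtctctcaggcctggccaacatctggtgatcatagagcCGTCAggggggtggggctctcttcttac
Prkar1a, chr11:109650699-109650948, plus strand: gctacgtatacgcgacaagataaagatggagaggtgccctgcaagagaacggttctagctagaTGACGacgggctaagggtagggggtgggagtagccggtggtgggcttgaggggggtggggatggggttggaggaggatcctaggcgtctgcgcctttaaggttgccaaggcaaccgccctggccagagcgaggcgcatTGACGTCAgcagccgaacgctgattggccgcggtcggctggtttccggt
Pde1a, chr2:80038903-80039152, minus strand: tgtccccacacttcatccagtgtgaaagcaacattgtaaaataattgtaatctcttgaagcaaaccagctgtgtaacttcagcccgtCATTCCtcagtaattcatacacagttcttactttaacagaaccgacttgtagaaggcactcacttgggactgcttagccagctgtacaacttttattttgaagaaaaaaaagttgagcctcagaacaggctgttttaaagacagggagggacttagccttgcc
Pde4a, chr9:21165464-21165713, plus strand: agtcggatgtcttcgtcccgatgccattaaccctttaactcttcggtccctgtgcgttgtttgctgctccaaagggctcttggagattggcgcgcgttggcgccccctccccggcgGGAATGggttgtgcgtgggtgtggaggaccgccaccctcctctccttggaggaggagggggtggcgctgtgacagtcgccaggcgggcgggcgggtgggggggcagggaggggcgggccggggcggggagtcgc

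Over both strands, the CRE palindrome was found in 1 of the 94 windows of the 50 genes, tested or not, with a RefSeq window, or 1.06%, and in 1.55% of all 32851 promoter windows. The core, which every palindrome also holds, was in 16.0% of member windows and 17.8% of all windows. Counted by window, it was in 6 of 25 of the higher genes, 3 of 33 of the lower genes and 6 of 28 of those that did not pass. By gene this was 4 of 10 that were higher (Adcy7, Pde1a, Pde4b and Prkar1a), 3 of 16 that were lower (Adcy9, Pde4a and Prkaca) and 6 of 17 that did not pass. A gene with more windows has more chances to hold a core, and no share per gene was taken over all genes. The TEAD core was in 9.57% of member windows and 12.6% of all windows. It was in 3 of 25 windows of higher and 2 of 33 of lower genes, or 2 of 10 higher and 2 of 16 lower genes. In the Pde1a window a CGTCA overlaps the TEAD core. These matches are of letters in a window and say nothing of whether a factor binds there.

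The adenylyl cyclases, which make cAMP, changed in both directions. Adcy7 and Adcy1 moved by similar log2 fold changes in opposite directions, though Adcy1 was far less abundant. Of 8 tested members, 2 were higher, 4 were lower and 2 did not pass, so 75.0% were called, beside 42.3% of all genes. Adcy7, a cyclase stimulated by the G protein beta-gamma subunits and abundant in blood and immune cells, is encoded on the plus strand at chr8:88272403-88329962 (GRCm38). Adcy7 had 89.5, 77.1, 96.1 and 78.7 CPM in the Mst1-TG libraries, against 23.7, 28.6, 26.6 and 27.1 CPM in the WT libraries. Every Mst1-TG library lay far above every WT library. The fold was 3.22, a log2 fold change of 1.69 ± 0.09 (SE; edgeR, adjusted p = 2.2e-08). Adcy2, a calmodulin-insensitive cyclase best known from brain, had 1.54, 2.16, 1.79 and 1.59 CPM in Mst1-TG and 0.425, 0.620, 0.951 and 1.01 CPM in WT. It rose by 1.23 ± 0.29 on the log2 scale (SE; edgeR, adjusted p = 0.0043), and its libraries did not overlap. Its level per kb of transcript in Mst1-TG was 0.420 CPM, against 14.3 CPM for Adcy7.

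Adcy1, a cyclase stimulated by calcium and calmodulin that is best known from neurons and pacemaker cells, fell. Its libraries had 1.26, 1.42, 1.43 and 2.09 CPM in Mst1-TG and 4.82, 5.58, 5.28 and 3.98 CPM in WT. The groups were well apart, and the log2 fold change was -1.66 ± 0.20 (SE; edgeR, adjusted p = 1.7e-05). Adcy6, which with Adcy5 makes up the calcium-inhibited cyclases that dominate in cardiomyocytes, had 224, 274, 215 and 245 CPM in Mst1-TG and 317, 306, 342 and 268 CPM in WT. The Adcy6 groups overlapped by 1 library on each side, with a log2 fold change of -0.36 ± 0.09 (SE; edgeR, adjusted p = 0.0064). Adcy5 averaged 132 ± 11.6 CPM in Mst1-TG and 123 ± 4.41 CPM in WT (SD, n = 4 each) and did not pass (log2 fold change 0.09, 95% interval -0.04 to 0.23; edgeR, adjusted p = 0.31). Whether Adcy5 and Adcy6 differ in their response was not tested. Adcy4, which is prominent in vascular cells, fell by 0.47 on the log2 scale, and Adcy9, a widely expressed cyclase that is little affected by forskolin, fell by 0.42. With library totals Adcy4 (-0.18, adjusted p = 0.085), Adcy6 (-0.08, 0.44) and Adcy9 (-0.13, 0.31) no longer passed edgeR's test, while Adcy5 did so as higher (0.38, 2.9e-04).

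Set per kilobase of each gene's longest coding transcript, so that genes can be compared with one another, Adcy6 was the most abundant cyclase in both groups. It took 43.7% of the family's summed level in Mst1-TG (range over libraries 40.6 to 46.4) and 53.0% in WT (50.6 to 54.9). Adcy7 took 15.9% in Mst1-TG (13.2 to 18.4) and 4.66% in WT (4.09 to 5.20), and in Mst1-TG it ranked below Adcy6 and Adcy5 (20.7%), whereas in WT it also ranked below Adcy4 and Adcy9. Adcy1 took 0.140% in Mst1-TG and 0.417% in WT. The family's summed level was 90.7 ± 4.76 CPM per kb in Mst1-TG and 96.0 ± 6.43 in WT (SD, n = 4 each), and with library totals it was 99.9 ± 3.94 in Mst1-TG and 86.8 ± 4.70 in WT, the opposite order. The shares do not depend on the scaling between libraries, but they do depend on the transcript length chosen, and they describe RNA, not cyclase activity.

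**Figure D2:**
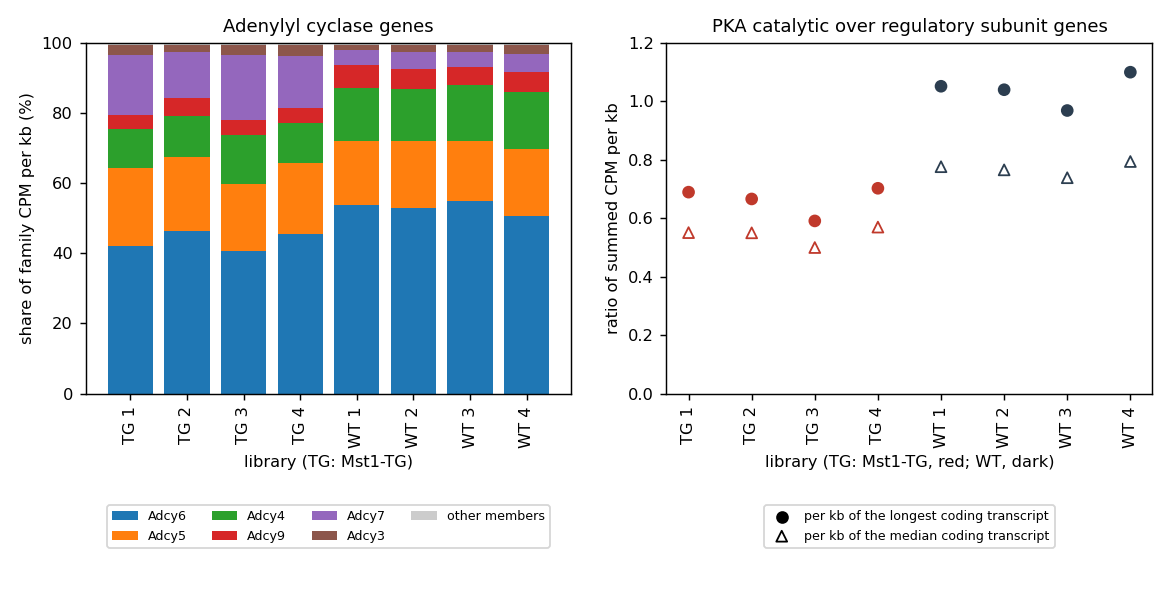
Left, share of the adenylyl cyclase family's summed CPM per kb (percent, vertical axis) taken by each gene in each library, with Mst1-TG libraries left of WT; the Adcy7 band is 13.2 to 18.4% in Mst1-TG and 4.09 to 5.20% in WT. Right, ratio of summed PKA catalytic to summed PKA regulatory subunit level per kb in each library, by 2 choices of transcript length; with either length every Mst1-TG library lies below every WT library.

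Phosphodiesterases, which hydrolyse cAMP, cGMP or both, made up 11 of the 16 genes that changed at least 1.5-fold. Of 19 tested, 6 were higher, 7 were lower and 6 did not pass. The genes that fell encode 5 cAMP-selective enzymes and the dual enzymes Pde1c and Pde2a, and those that rose encode the cAMP-selective Pde4b and Pde7b, the dual enzymes Pde1a and Pde10a, and the cGMP-selective Pde5a and Pde9a. The share called was 68.4%, beside 42.3% of all genes.

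Pde2a, the dual enzyme that cGMP stimulates, stood at 18.5 CPM per kb in Mst1-TG and 34.6 in WT, the highest of the family in WT, while Pde6d at 24.1 was the highest in Mst1-TG. Pde2a had 74.7, 72.2, 88.6 and 77.0 CPM in Mst1-TG and 144, 120, 159 and 161 CPM in WT. The groups were apart, with a log2 fold change of -0.90 ± 0.10 (SE; edgeR, adjusted p = 7.7e-06). Pde2a shares up to 1364 exon bases on the same strand with the gene model Gm45837, so reads could have been divided between them. Gm45837 had 4.62, 5.27, 4.89 and 15.1 CPM in Mst1-TG and 0, 17.8, 0 and 0 CPM in WT, and the WT library with 17.8 is the one in which Pde2a was lowest. With both sets of counts added, the log2 fold change was -0.81 ± 0.08 (SE; edgeR, adjusted p = 3.0e-06). Pde1c, a calmodulin-stimulated enzyme of cardiomyocytes and smooth muscle, had 34.5, 53.8, 32.0 and 37.2 CPM in Mst1-TG and 92.1, 89.4, 91.3 and 63.0 CPM in WT. All Mst1-TG libraries lay below all WT libraries, of which WT 4 was lowest (log2 fold change -1.09 ± 0.18, SE; edgeR, adjusted p = 9.1e-04).

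Genes of the Pde4 subfamily encode the rolipram-sensitive cAMP-specific enzymes, a major regulator of beta-adrenergic cAMP in the rodent heart, and of the 4 genes 3 fell and 1 rose. Pde4a had 29.9, 28.2, 25.2 and 25.4 CPM in Mst1-TG and 50.8, 54.1, 50.5 and 54.3 CPM in WT. Its groups were narrow and well apart (log2 fold change -0.95 ± 0.07, SE; edgeR, adjusted p = 3.0e-07). Pde4d, known for its association with beta-adrenergic receptors and the ryanodine receptor, had 10.7, 14.6, 12.7 and 12.3 CPM in Mst1-TG and 23.2, 24.2, 21.8 and 19.7 CPM in WT (-0.82 ± 0.10, SE; edgeR, adjusted p = 2.8e-05). Pde4c, usually the least abundant of these genes in heart, had 4.58, 6.22, 5.67 and 6.61 CPM in Mst1-TG and 9.25, 11.3, 13.3 and 9.12 CPM in WT (-0.90 ± 0.15, SE; edgeR, adjusted p = 3.6e-04). None of these 3 genes had overlapping groups. Pde4b, the form tied to the L-type calcium channel in mouse heart, had 50.1, 50.2, 53.0 and 43.3 CPM in Mst1-TG and 38.6, 37.3, 33.3 and 39.8 CPM in WT. It was higher in every Mst1-TG library than in any WT library, by 0.40 ± 0.08 on the log2 scale (SE; edgeR, adjusted p = 0.0011). Per kilobase, Pde4b stood at 11.4 CPM per kb in Mst1-TG and 8.65 in WT, and Pde4a at 5.84 in Mst1-TG and 11.3 in WT, so the order of the pair differed between the groups.

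The other cAMP-specific genes split as well. Pde7a had 10.9, 12.7, 11.4 and 9.03 CPM in Mst1-TG and 16.6, 21.1, 23.5 and 17.1 CPM in WT, and fell by 0.83 on the log2 scale (SE 0.13; edgeR, adjusted p = 2.0e-04). Its paralogue Pde7b had 37.2, 34.0, 38.1 and 39.0 CPM in Mst1-TG and 19.5, 25.4, 24.4 and 26.2 CPM in WT, and rose by 0.63 (SE 0.09; edgeR, adjusted p = 8.9e-05). Both pairs of groups were apart, in opposite directions. Pde8b, a high-affinity cAMP enzyme, had 3.41, 3.41, 4.61 and 4.72 CPM in Mst1-TG and 6.94, 5.84, 6.37 and 6.20 CPM in WT (-0.65 ± 0.15, SE; edgeR, adjusted p = 0.0033). Its groups did not overlap, but with library totals it did not pass (-0.36, adjusted p = 0.058).

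Pde5a and Pde9a, the cGMP-selective enzymes, rose. Pde5a, the target of sildenafil, had 17.6, 20.2, 18.7 and 18.3 CPM in Mst1-TG and 10.6, 11.8, 12.6 and 13.2 CPM in WT (log2 fold change 0.63 ± 0.09, SE; edgeR, adjusted p = 1.0e-04). Pde9a, tied in heart to natriuretic peptide cGMP, had 10.3, 8.98, 12.0 and 11.1 CPM in Mst1-TG and 7.79, 3.77, 5.33 and 6.40 CPM in WT (0.86 ± 0.18, SE; edgeR, adjusted p = 0.0023). Neither gene's groups overlapped, and the spread among WT libraries was wide for Pde9a. Pde10a, a dual enzyme best known from striatum, had 9.61, 10.1, 11.3 and 10.6 CPM in Mst1-TG and 7.79, 6.82, 7.28 and 5.29 CPM in WT (0.61 ± 0.13, SE; edgeR, adjusted p = 0.0016). Pde1a, the calmodulin-stimulated paralogue of Pde1c, averaged 14.2 ± 1.75 CPM in Mst1-TG and 9.99 ± 0.535 CPM in WT (SD, n = 4 each) and rose by 0.51, opposite to Pde1c (edgeR, adjusted p = 0.0016). Per kb, the family sum was 113 ± 3.48 CPM in Mst1-TG and 135 ± 5.63 CPM in WT (SD, n = 4 each), with ranges of 109 to 118 in Mst1-TG and 128 to 141 in WT. The sum includes Pde6d, which has no hydrolysing activity (21.4% of it in Mst1-TG, 18.3% in WT). It also includes Pde12, an enzyme of oligoadenylates (1.63% in Mst1-TG, 1.34% in WT). With library totals the sum was 124 ± 5.80 in Mst1-TG and 122 ± 6.56 in WT (SD, n = 4 each), with overlapping ranges, so the lower sum in Mst1-TG rests on the TMM scaling.

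**Figure D3:**
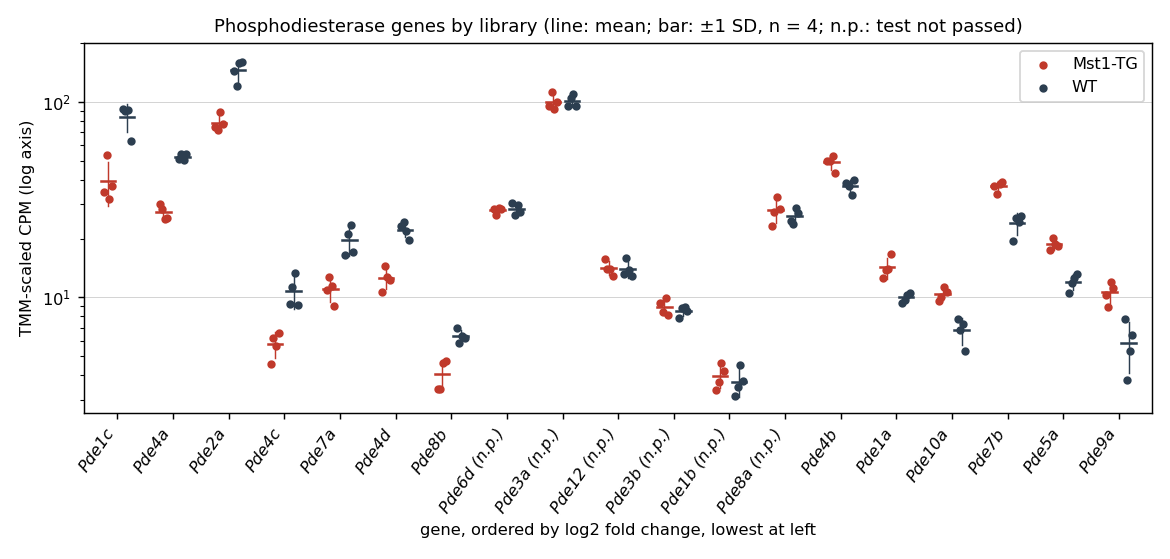
CPM (logarithmic vertical axis) of the phosphodiesterase genes in each library, with Mst1-TG points left of WT points and bars for the mean ± SD of 4 libraries. The groups of Pde4a, at 25.2 to 29.9 CPM in Mst1-TG and 50.5 to 54.3 in WT, do not overlap.

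The phosphodiesterases that did not pass included Pde3a and Pde3b, the cGMP-inhibited enzymes of cardiac cAMP. Pde3a averaged 99.7 ± 8.79 CPM in Mst1-TG and 101 ± 7.2 CPM in WT (SD, n = 4 each), with a log2 fold change of -0.02 and a 95% interval of -0.17 to 0.13 (edgeR, adjusted p = 0.86). Pde3b differed by 0.07, Pde1b, a calmodulin-stimulated enzyme of brain and immune cells, by 0.10 and Pde8a, the second high-affinity cAMP enzyme, by 0.10 on the log2 scale. Pde6d, a chaperone for prenylated proteins with no hydrolysing activity, differed by -0.03 and Pde12, a 2',5'-phosphodiesterase of oligoadenylates, by 0.03. When libraries were scaled by totals, Pde3a (0.26, adjusted p = 0.0062) and Pde6d (0.26, 0.0088) passed edgeR's test as higher. So did Pde8a (0.39, adjusted p = 0.0086), Pde3b (0.35, 0.017) and Pde12 (0.31, 0.015). Pde6a, Pde6b and Pde6c, the photoreceptor forms, and Pde11a, a dual enzyme, were left out by the filter, with 2 to 17 counts over all 8 libraries.

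Of 6 PKA subunit genes tested, the main catalytic subunit fell and the main regulatory subunit rose. These 2 are 33.3% of the 6, beside 42.3% of all genes, and none changed 1.5-fold. Prkaca, the main catalytic subunit (chr8:83972993-83996443, GRCm38), had 279, 280, 234 and 277 CPM in Mst1-TG and 370, 373, 357 and 337 CPM in WT. Prkar1a, the type I regulatory subunit that is mutated in Carney complex, had 650, 687, 667 and 645 CPM in Mst1-TG and 528, 533, 560 and 452 CPM in WT. Neither gene's groups overlapped. Prkaca fell by 0.43 ± 0.08 on the log2 scale (SE; edgeR, adjusted p = 4.9e-04) and Prkar1a rose by 0.35 ± 0.08 (SE; edgeR, adjusted p = 0.0023). Prkar2a, the type II regulatory subunit that anchoring proteins bind with high affinity, averaged 95.0 ± 8.30 CPM in Mst1-TG and 108 ± 5.08 CPM in WT (SD, n = 4 each) and lay just outside the threshold (log2 fold change -0.19, 95% interval -0.32 to -0.05; edgeR, adjusted p = 0.052), and with library totals its value was 0.10 (adjusted p = 0.21). Prkacb, the second catalytic subunit (0.12, adjusted p = 0.11), Prkar1b, a neuronal type I subunit (0.12, 0.64), and Prkar2b, the type II subunit of fat and brain (0.50, 0.18), did not pass edgeR's test, although every Mst1-TG library was above every WT library for Prkacb. With library totals Prkaca did not pass (-0.14, adjusted p = 0.091), so its fall is relative to other genes.

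The ratio of catalytic to regulatory subunit RNA, each summed per kb of the longest coding transcript, was 0.662 ± 0.0499 in Mst1-TG and 1.04 ± 0.0541 in WT (SD, n = 4 each). It ranged over 0.590 to 0.702 in Mst1-TG and 0.968 to 1.10 in WT, with no overlap, and needs no scaling between libraries. With median transcript lengths it was 0.542 in Mst1-TG and 0.768 in WT. The summed level of type I over type II regulatory subunits was 9.36 ± 1.08 in Mst1-TG and 6.55 ± 0.525 in WT (SD, n = 4 each), and 1.83 in Mst1-TG and 1.26 in WT with median lengths. The size of that ratio depends strongly on the length taken for Prkar2a, while its direction does not. These ratios are of RNA and were not tested as they were chosen with the subunits' results known.

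The cGMP side held few genes. Prkg1, the PKG of smooth muscle and cardiomyocytes, had 30.2, 32.6, 27.7 and 33.6 CPM in Mst1-TG and 19.5, 23.9, 23.4 and 20.1 CPM in WT. It was higher in every Mst1-TG library, by 0.51 ± 0.09 on the log2 scale (SE; edgeR, adjusted p = 4.5e-04). Prkg2, the membrane-bound PKG of gut and cartilage, lay at 0.649 CPM in Mst1-TG and 0.641 CPM in WT and did not pass (edgeR, adjusted p = 0.96). Of the soluble guanylate cyclase subunits, Gucy1a1, the main alpha subunit, had 35.2, 33.5, 41.6 and 34.2 CPM in Mst1-TG and 45.7, 43.2, 50.8 and 49.6 CPM in WT. It fell by 0.39 ± 0.08 (SE; edgeR, adjusted p = 0.0019), with no overlap, but with library totals it did not pass (-0.10, adjusted p = 0.36). Its obligate partner Gucy1b1 had 34.7, 33.0, 41.9 and 38.8 CPM in Mst1-TG and 44.6, 32.6, 40.0 and 48.0 CPM in WT. The Gucy1b1 groups overlapped and the test was not passed (-0.15, 95% interval -0.38 to 0.07; edgeR, adjusted p = 0.31; 0.13 with library totals), nor was it for Gucy1a2, the minor alpha subunit (-0.38, adjusted p = 0.21). Gucy1b2, a beta subunit with little known role in heart, had 10 counts in all and was left out.

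**Figure D4:**
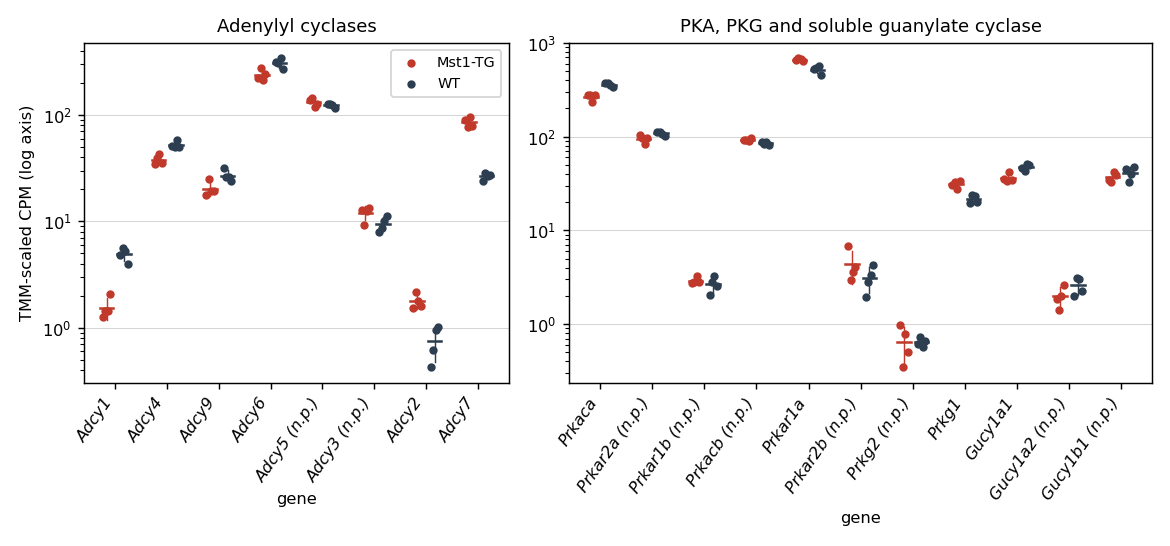
CPM (logarithmic vertical axis) of adenylyl cyclase, soluble guanylate cyclase, PKA and PKG genes in each library, with Mst1-TG points left of WT points and bars for the mean ± SD of 4 libraries. Adcy7 and Prkar1a lie higher in all Mst1-TG libraries, and Adcy1 and Prkaca lower.

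Anchoring proteins with an Akap symbol had 2 higher and 5 lower of 12 tested, or 58.3%, beside 42.3% of all genes. Akap5 and Akap7, or 16.7%, changed at least 1.5-fold, beside 21.4% of all genes. Akap5, which holds PKA, calcineurin and adenylyl cyclase at the plasma membrane, had 3.49, 1.94, 2.04 and 2.09 CPM in Mst1-TG and 5.95, 5.43, 4.09 and 6.85 CPM in WT. Akap7, whose long form places PKA at the phospholamban and SERCA2 complex, had 14.1, 15.8, 15.9 and 16.8 CPM in Mst1-TG and 24.8, 28.0, 24.9 and 24.0 CPM in WT. Both genes were lower in every Mst1-TG library. Akap5 fell by 1.22 ± 0.22 (SE; edgeR, adjusted p = 5.7e-04) and Akap7 by 0.70 ± 0.08 (SE; edgeR, adjusted p = 1.5e-05). Akap1, which anchors PKA at the outer mitochondrial membrane and had the highest level of the family per kb of the longest coding transcript, had 99.5, 126, 90.8 and 96.8 CPM in Mst1-TG and 139, 155, 140 and 136 CPM in WT. Its groups did not overlap (-0.47 ± 0.09, SE; edgeR, adjusted p = 0.0013). With median transcript lengths Akap8 was highest instead, at 96.2 CPM per kb in Mst1-TG and 121.6 in WT, against 27.7 in Mst1-TG and 38.3 in WT for Akap1.

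The nuclear anchoring proteins Akap8 (-0.34) and Akap8l (-0.21) were also lower, as edgeR called them (adjusted p = 0.0030 and 0.043). With library totals neither these (Akap8 -0.05, adjusted p = 0.55; Akap8l 0.072, 0.44) nor Akap1 (-0.18, 0.084) passed, and Akap8l also lost its call in 8 other settings, 6 of them without Mst1-TG 3 or 4 or without any 1 of the WT libraries (adjusted p = 0.058 to 0.13). Akap13, an activator of the small GTPase RhoA known in heart as AKAP-Lbc, averaged 184.5 ± 10.2 CPM in Mst1-TG and 143.5 ± 2.49 CPM in WT (SD, n = 4 each) and rose by 0.36 (edgeR, adjusted p = 3.2e-04), with no overlap. Akap12, a scaffold known as gravin, averaged 137 ± 24.9 CPM in Mst1-TG and 102 ± 13.1 CPM in WT (SD, n = 4 each) with overlapping groups (0.42, edgeR, adjusted p = 0.023). Its call was lost without Mst1-TG 4 (adjusted p = 0.052), without WT 2 (0.071) and without WT 3 (0.070). Akap6, known as mAKAP at the nuclear envelope of cardiomyocytes, did not pass (0.03, 95% interval -0.14 to 0.20), and neither did Akap9, known as yotiao (0.26, adjusted p = 0.069 by edgeR), Akap10, a dual-specificity anchor (-0.08), Akap11, which binds type I subunits (0.03), or Akap17b (-0.29). Akap3 and Akap4, anchoring proteins of sperm, had 0 counts in every library, and Akap14 had 1 count in all.

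The remaining untested genes were Adcy8, a calcium-stimulated cyclase, with 9 counts in Mst1-TG and 19 in WT, and Adcy10, the bicarbonate-sensitive soluble cyclase, with 2 in Mst1-TG and 13 in WT. Prkar1b shares up to 341 exon bases on the same strand with Gm15672, which had 64 counts in all against 496 for Prkar1b. Some members share exons on opposite strands with other genes. Among these are Pde12 with Arf4, Akap9 with Cyp51, Adcy3 with Cenpo, Adcy6 with Gm29331, Pde3a with Gm28523 and Pde8b with Gm48420. The kit kept strand information, but the handling of strand in counting is not given in the sources used here, so these values are uncertain to that extent. Adcy3, a cyclase of olfactory neurons and many other tissues, did not pass (0.34, edgeR, adjusted p = 0.064).

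Partners of these genes, taken from 6 lists of the pathway, changed in both directions as well: 23 were higher and 24 lower of 88, or 53.4%, beside 42.3% of all genes. Libraries of the groups did not overlap for 40.9% of the 88, near the 40.3% of all genes. With library totals the count was 43 higher and 10 lower. Among 18 tested receptors, G proteins and their regulators, 5 were higher and 4 lower, so 9 of the 18 were called, beside 42.3% of all genes. Grk5, a kinase that desensitises G protein-coupled receptors, had 119, 106, 107 and 98.3 CPM in Mst1-TG and 50.3, 50.6, 55.2 and 64.7 CPM in WT, and every Mst1-TG library lay above every WT library (log2 fold change 0.96 ± 0.09, SE; edgeR, adjusted p = 1.4e-06). Adrb1, the beta1-adrenergic receptor, had 15.9, 19.3, 16.2 and 20.9 CPM in Mst1-TG and 26.9, 24.5, 24.0 and 25.0 CPM in WT and fell by 0.47 (edgeR, adjusted p = 0.0013), though not with library totals (-0.19, adjusted p = 0.096). Ptger4, a Gs-coupled prostaglandin receptor (1.18), Gnai1, an inhibitory G protein subunit (0.59), and Arrb1, the beta-arrestin 1 gene (0.58), rose. Gnas, which encodes the Gs alpha subunit, did not pass edgeR's test (0.14, adjusted p = 0.11).

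Among 13 tested PKA inhibitors and other cAMP effectors, 3 were higher and 5 lower, or 61.5%, beside 42.3% of all genes. Popdc3, a cAMP-binding Popeye protein, averaged 44.5 CPM in Mst1-TG and 21.3 CPM in WT and rose (1.06), whereas its paralogue Popdc2 fell (-0.62). Hcn2, a cyclic nucleotide-gated pacemaker channel (-0.82), Rapgef3, the cAMP-activated exchange factor Epac1 (-0.47), and Pkia, a PKA inhibitor peptide (-0.35), fell. These falls are for the TMM scaling, and with library totals the all-gene median log2 fold change was 0.29. Smaller falls, as of Rapgef3 and Pkia here and of Kcnq1 and Arfgef2 below, depend more on the scaling than larger ones. Among 14 tested PKA substrates, 2 were higher and 5 lower, so 7 of the 14 were called, beside 42.3% of all genes. Pln, phospholamban, which restrains the calcium pump SERCA2 until PKA phosphorylates it, had 2376, 3001, 2267 and 2522 CPM in Mst1-TG and 4784, 4681, 4619 and 4229 CPM in WT, with no overlap (log2 fold change -0.85 ± 0.10, SE; edgeR, adjusted p = 1.0e-05). Tnni3, cardiac troponin I, averaged 1270 CPM in Mst1-TG and 3197 CPM in WT (-1.33), and Kcnq1, a potassium channel subunit, fell as well (-0.40). Ppp1r1a, the protein phosphatase inhibitor that PKA switches on (1.32), and Rrad, a GTPase that restrains the L-type calcium channel (0.85), rose.

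Genes of cAMP-responsive transcription had 6 higher and 2 lower of 16 tested, so 8 of the 16 were called, beside 42.3% of all genes, and groups that did not overlap for 3 of the 16, or 18.75%, beside 40.3% of all genes. Fos, an immediate-early gene (1.79), Creb3l2, a membrane-bound factor of the CREB3 family (0.99), and Nr4a2, an immediate-early nuclear receptor (0.86), rose, and Ppargc1a, the coactivator of mitochondrial biogenesis (-1.76), and Nr4a3, a nuclear receptor related to Nr4a2 (-1.30), fell. Crem, a direct cAMP target and repressor, did not pass (-0.12, edgeR, adjusted p = 0.40). Among 9 tested sources of cGMP outside soluble guanylate cyclase, 2 were higher and 2 lower, or 44.4%, near the 42.3% of all genes. Nppa, atrial natriuretic peptide, had 5236, 7252, 6748 and 5100 CPM in Mst1-TG and 243, 191, 234 and 206 CPM in WT, and the groups were very far apart (log2 fold change 4.80 ± 0.15, SE; edgeR, adjusted p = 3.4e-10). Nppb, brain natriuretic peptide, rose (1.14), while Npr1, their cGMP-making receptor (-0.11, adjusted p = 0.45), and Npr3, the clearance receptor (0.24, 0.11), did not pass edgeR's test. Nos2, the inducible nitric oxide synthase (-0.78, adjusted p = 0.019), and Nos3, the endothelial one (-0.27, 0.041), fell by edgeR's test, although Nos3 was 0.020 with library totals. Among 18 tested anchoring proteins without an Akap symbol, 5 were higher and 6 lower, or 61.1%, beside 42.3% of all genes. Synm, the intermediate filament protein synemin (1.22), and Msn, the membrane-cytoskeleton linker moesin (0.57), were among those that rose. Smyd2, a lysine methyltransferase (-0.89), Cmya5, known as myospryn (-0.56), and Arfgef2, an exchange factor for Arf GTPases (-0.42), were among those that fell.

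**Figure D5:**
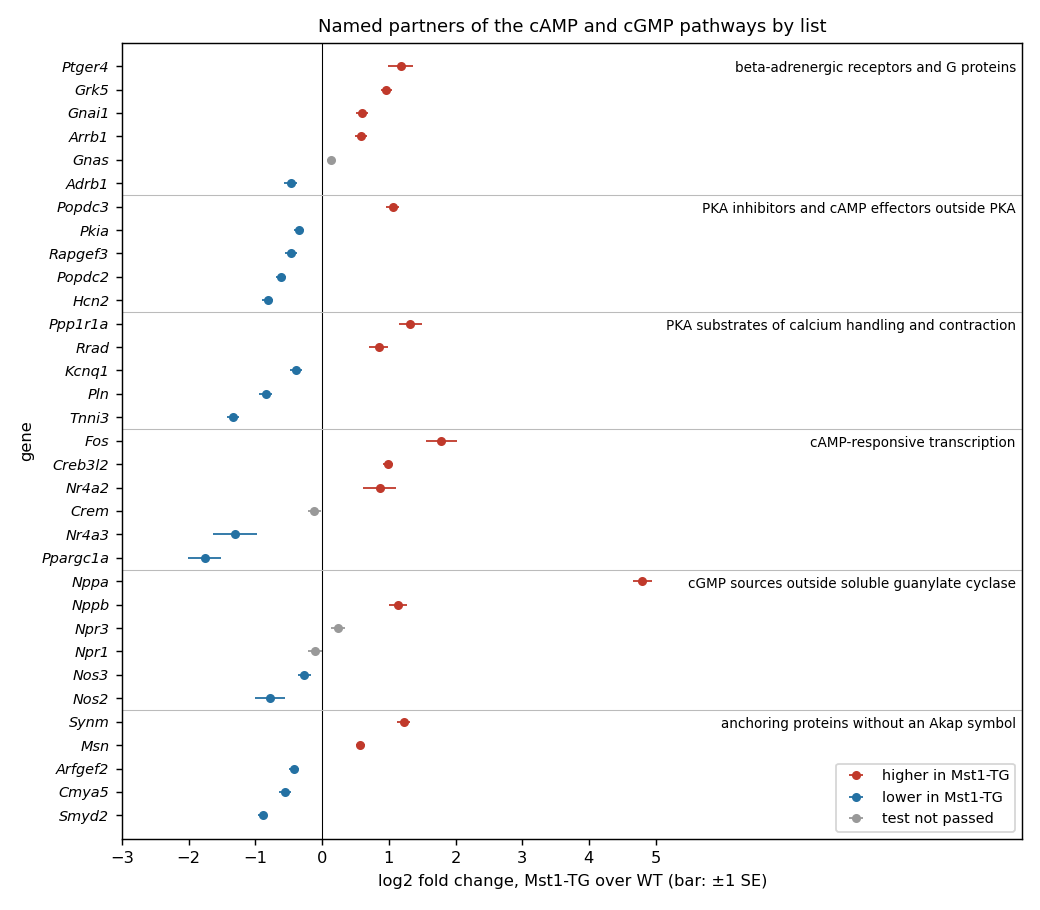
Log2 fold change (Mst1-TG over WT, horizontal axis; bars are ±1 SE) of the named pathway partners, grouped by list down the page, with red for higher, blue for lower and grey for genes that did not pass edgeR's test. Nppa at 4.80 lies far from the rest, and each list holds genes on both sides of 0.

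Markers of fibroblasts, of cardiomyocytes and of smooth muscle and pericytes were called more often than all genes (42.3%), while 0 of 7 tested erythrocyte markers were called. The erythrocyte sums overlapped, at 3597 to 7663 CPM in Mst1-TG and 5863 to 14926 CPM in WT. In bulk tissue, fewer cells of a type and less RNA per cell cannot be told apart. Of 10 tested fibroblast markers 9 were higher in Mst1-TG, and their summed level was 8661 to 10698 CPM in Mst1-TG and 4387 to 5299 CPM in WT. Of 12 tested cardiomyocyte markers 1 was higher and 6 were lower, or 58.3%. Their summed level was 43277 to 54254 CPM in Mst1-TG and 60037 to 70517 CPM in WT. Smooth muscle and pericyte markers had 2 higher and 5 lower of 10 (1370 to 1628 CPM in Mst1-TG, 1852 to 2207 CPM in WT), and endothelial markers 0 higher and 4 lower of 10 (1935 to 3138 CPM in Mst1-TG, 2708 to 3404 CPM in WT). Beside Adcy7, leukocyte markers had 0 higher and 1 lower of 9 tested, or 11.1%, at 324 to 449 CPM in Mst1-TG and 312 to 425 CPM in WT. No marker was at 0 counts in every library, but 5 of 6 adipocyte and 4 of 10 neuron and Schwann cell markers were too low to test. The median log2 fold change was -0.33 for cardiomyocyte, -0.29 for smooth muscle and pericyte and -0.26 for endothelial markers. With library totals the all-gene median was 0.29, so medians of this size depend on the TMM scaling. Some single markers fell further: 4 cardiomyocyte, 2 smooth muscle and pericyte and 0 endothelial markers were lower by at least 1.5-fold. The part of the markers, and of the mitochondrial share, in the results above was not tested.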

How the data were processed

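Total RNA (200 ng) from left ventricle was depleted of ribosomal RNA and made into directional libraries, per the labels' protocols. The submitters' processing notes name bcl2fastq 2.19.1.403 and kallisto 0.46.0. The authors deposited 1 table of estimated counts per gene, all whole numbers, so rounding changed nothing. The sources used here give neither the build nor the strand setting. Groups came from the sample titles. The table was analysed with edgeR 4.0.16 in R 4.3.3: filterByExpr (minimum count 10, minimum total 15) left 15314 genes and set aside 40071, libraries were scaled by TMM factors, and robust quasi-likelihood F tests gave p-values adjusted by Benjamini-Hochberg over all tested genes. Intervals are ±1.96 SE. The biological coefficient of variation was 11.4% and the median SE of a log2 fold change 0.111, which sets the precision at this depth. Levels between genes are per kb of the longest coding transcript in GENCODE M21, to which all 60 identifiers matched without version. The script was tested on simulated data. No 2 replicates agreed within counting noise. DESeq2 1.42.0, limma-voom 3.58.1, other scalings, no filter, a replicate block and leaving out each library were tried as alternatives, and adding the counts of Gm45837 to Pde2a was chosen after seeing the data. Members that passed the test with at least 1.5-fold, and the highest member per kb of each family, have their value in every library given, and of the pathway lists the 5 smallest p-values and a set of partners are named, of which 1 is not reported here. Other genes in the text have values in every library where they help a comparison. The members and lists were chosen with earlier results of these data known.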

Additional observations from a re-analysis of the deposited data

Results flagged for a closer look

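Of 170 groups of 4 libraries, taken over 85 genes, 8 held a library whose gap to its nearest neighbour was above Dixon's 95% critical value, and chance gives about 1 in 20. Among the cyclic nucleotide genes these were Akap5 in Mst1-TG 1 (3.49 CPM, against 1.94 to 2.09 in the other Mst1-TG libraries), Pde1c in WT 4 (63.0 CPM, against 89.4 to 92.1 in the other WT libraries) and Prkaca in Mst1-TG 3 (234 CPM, against 277 to 280.4 in the others). The other members were Pde6d in Mst1-TG 2 (26.5 CPM, against 28.3 to 28.6) and Prkar1b in Mst1-TG 3 (3.22 CPM, against 2.76 to 2.81). Among the partners they were Smyd2 in Mst1-TG 4 (68.0 CPM, against 60.7 to 61.5), Ptger4 in WT 2 (3.93 CPM, against 7.61 to 8.36) and Kcnq1 in Mst1-TG 3 (26.3 CPM, against 33.1 to 33.7). Without Mst1-TG 1 the log2 fold change of Akap5 was -1.46, and without WT 4 that of Pde1c was -1.21, and both still passed edgeR's test.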

How the results depend on the processing

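Of the 30 members called, 20 kept direction and call in every setting, 11 higher and 9 lower, and 28 did so in every setting but library totals. The exceptions were Akap12 and Akap8l. Scaling by library totals, which moved the all-gene median by 0.29, gave 7409 higher and 1592 lower genes, 24 higher and 9 lower members, and 43 higher and 10 lower partners. It also turned the sign of 6 members, Akap8l (0.072), Pde3a (0.26), Pde6d (0.26), Prkar2a (0.10), Gucy1b1 (0.13) and Akap10 (0.20), and of the partners Nos3 (0.020), Npr1 (0.18) and Crem (0.17), of which Nos3 alone had a call, and it kept 21 of the 30 member calls. Leaving out 1 library gave 11 to 13 higher and 17 to 19 lower members. Replicate numbers did not pair the libraries: same-numbered libraries deviated together with correlations of -0.142 to 0.0746. With the replicate number as a block, 3064 genes were higher and 3123 lower, with 13 members higher and 19 lower, 29 of the 30 member calls were kept, and Akap12 was lost (edgeR, adjusted p = 0.0586). Prkar2a passed as lower in 5 settings: DESeq2 (adjusted p = 0.0465), TMM without mitochondrial and the 20 most abundant genes (0.0485), the block (0.0478), without Mst1-TG 1 (0.0219) and without WT 4 (0.0425). Adcy3 passed as higher in 6 of 16 settings, Akap9 in 5, Prkacb in 2 and Prkar2b in 2. Akap6 (0.31, adjusted p = 0.0053 by edgeR) and Akap11 (0.31, 0.0023) passed as higher with library totals alone, as did Adcy5, Pde3b, Pde8a and Pde12. The widest SEs of a log2 fold change among members were those of Prkg2 (0.36), Adcy2 (0.29) and Prkar2b (0.28). The part of depth in these SEs was not tested.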
